A study of Homo sapiens with 6 samples.

Results

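The genes described here are 10 components of the desmosome, the junction that ties the keratin filaments of neighbouring epithelial cells together. They were taken by symbol, with no threshold on a measured value, as the desmogleins DSG1, DSG2 and DSG3, the desmocollins DSC2 and DSC3, and the plaque proteins DSP, PKP1, PKP2, PKP3 and JUP, and all 10 were found among the 63677 gene identifiers of the count tables. Poly-A RNA was read out by sequencing in SW480 cells, an established human colorectal cancer line, transduced with a vector in which doxycycline induces either green fluorescent protein (GFP), the control, or POU5F1B, a retrogene of the pluripotency factor POU5F1. There were 3 GFP and 3 POU5F1B libraries, and all 6 came from cells kept for 72 h in 1 µg/mL doxycycline, so the control cells carried a vector and the drug as well. The labels do not say whether libraries of equal number came from one culture or day, nor whether a line was 1 clone, so p-values measure only the spread between these libraries, which may be technical.

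Desmogleins and desmocollins are the cadherins that bridge the gap between cells. Inside the cell their tails bind plakoglobin (encoded by JUP) and the plakophilins (PKP1, PKP2 and PKP3), which in turn bind desmoplakin (DSP), the protein that holds the keratin filaments. In simple epithelia such as the colon lining, DSG2 and DSC2 are the usual cadherins, whereas DSG1, DSG3, DSC1 and DSC3 belong mainly to stratified epithelia such as the epidermis. The cadherin genes lie side by side on the long arm of chromosome 18, with the desmocollins and the desmogleins read away from each other, whereas the plaque genes are scattered over other chromosomes.

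The sequence just before the start of a gene is shown for 5 members, because these 5 had more RNA in both replicate 3 libraries than in any other library (values below). Each run holds the 250 bases before a RefSeq gene start on GRCh38.p14, 5′ to 3′ on the strand of the gene, and capitals mark the hexamer CAGGTG or its reverse complement CACCTG, the E-box form that Snail and ZEB family repressors are known to bind. For DSC2, the first of its entries is given.
DSC2, chr18:31102422-31102671, minus strand: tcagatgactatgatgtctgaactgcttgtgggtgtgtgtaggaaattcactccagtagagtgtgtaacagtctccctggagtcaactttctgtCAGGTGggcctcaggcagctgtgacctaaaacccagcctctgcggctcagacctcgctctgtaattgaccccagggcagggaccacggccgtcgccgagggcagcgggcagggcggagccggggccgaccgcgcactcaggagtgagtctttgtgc
DSC3, chr18:31042743-31042992, minus strand: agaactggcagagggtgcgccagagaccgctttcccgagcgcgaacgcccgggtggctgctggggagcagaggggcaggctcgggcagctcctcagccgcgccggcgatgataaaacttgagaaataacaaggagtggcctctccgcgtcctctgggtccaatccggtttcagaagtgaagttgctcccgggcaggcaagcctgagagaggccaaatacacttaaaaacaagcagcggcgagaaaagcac
DSG3, chr18:31447491-31447740, plus strand: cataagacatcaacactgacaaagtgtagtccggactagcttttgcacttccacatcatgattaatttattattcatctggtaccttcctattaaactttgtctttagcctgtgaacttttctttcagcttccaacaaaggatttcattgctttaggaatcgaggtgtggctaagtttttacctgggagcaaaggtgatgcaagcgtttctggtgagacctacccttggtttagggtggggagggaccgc
DSG2, chr18:31497927-31498176, plus strand: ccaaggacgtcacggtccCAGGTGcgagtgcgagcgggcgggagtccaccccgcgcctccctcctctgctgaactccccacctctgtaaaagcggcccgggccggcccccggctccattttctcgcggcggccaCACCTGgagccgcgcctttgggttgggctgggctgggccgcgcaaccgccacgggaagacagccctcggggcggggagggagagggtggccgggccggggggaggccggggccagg
DSP, chr6:7541421-7541670, plus strand: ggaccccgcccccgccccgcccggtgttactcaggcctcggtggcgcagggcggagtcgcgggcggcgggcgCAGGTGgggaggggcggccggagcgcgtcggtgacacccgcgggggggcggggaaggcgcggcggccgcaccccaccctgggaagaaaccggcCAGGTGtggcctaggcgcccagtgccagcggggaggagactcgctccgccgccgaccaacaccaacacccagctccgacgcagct
The stretches differ in kind. The DSG3 stretch is rich in A and T and holds 4 CpG dinucleotides, close to the lower quartile of 3 over 35116 RefSeq promoter stretches of the same length. DSC2 and DSC3 hold 12 and 18, both between the median of 11 and the upper quartile of 23. DSG2 and DSP hold 26 and 33 CpG dinucleotides, above the upper quartile. The hexamer occurs 2 times in DSG2, 2 times in DSP, 1 time in DSC2 and 0 times in DSC3 and DSG3, and 17.5% of all the promoter stretches hold at least 1. It was not particular to these 5 genes. Of the members not shown, DSG1 held 1, PKP1 0, and JUP 0 in its first entry and 2 in its second. The second DSC2 entry held 0. A match is a description of these letters and no evidence of a bound site. RefSeq entries were found for 8 of the 10 genes, and PKP2 and PKP3 had none in the table used.

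Sequencing depth was even, from 10767947 to 12787637 counts per library, and 3 counts, the limit that a count of 0 allows, corresponded to 0.228 to 0.278 CPM (counts divided by the TMM-scaled library size). POU5F1B itself had 6, 5 and 1 counts in GFP replicates 1, 2 and 3, and 15027, 11393 and 1458 counts in the POU5F1B replicates, so the induced gene was present in all 3 but far lower in replicate 3 (121 CPM) than in replicates 1 and 2 (1180 and 1054 CPM). The epithelial label held, since KRT8, KRT18, EPCAM and CDH1 were expressed in all 6 libraries, although the colon markers CDX1 and LGALS4 stayed under 1 CPM. GFP replicate 3 stood apart from the other 2 GFP libraries, for example with 517 CPM of EPCAM against 86.6 and 89.3. Results are therefore given with and without it.

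The most abundant desmosomal transcripts in these cells were those of PKP2, DSP, PKP3, JUP and DSG2. Expressed per kilobase of exon, so that genes can be compared, mean levels over the 6 libraries were 23.7 CPM per kb for PKP2, 23.5 for DSP, 19.9 for PKP3, 16.5 for JUP and 7.14 for DSG2. PKP1, a plakophilin of stratified epithelia, followed at 0.910 CPM per kb, and the remaining cadherins at 0.612 (DSC2), 0.233 (DSG3), 0.0851 (DSC3) and 0.0152 (DSG1). The first 4 cannot be ranked, since over single libraries PKP2 spanned 17.0 to 27.4 CPM per kb, DSP 15.0 to 50.1, PKP3 10.76 to 26.6 and JUP 13.8 to 20.2. DSG2 spanned 3.41 to 21.2 CPM per kb and so overlapped them in GFP replicate 3, whereas PKP1, at 0.530 to 1.14, lay below these 5 genes in every library. The order below DSG2 was not fixed either, because in GFP replicate 3 DSC2 reached 2.89 and DSG3 1.01 CPM per kb, above PKP1 at 0.530, and both were at or near 0 in replicates 1 and 2 of either group.

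**Figure D1:**
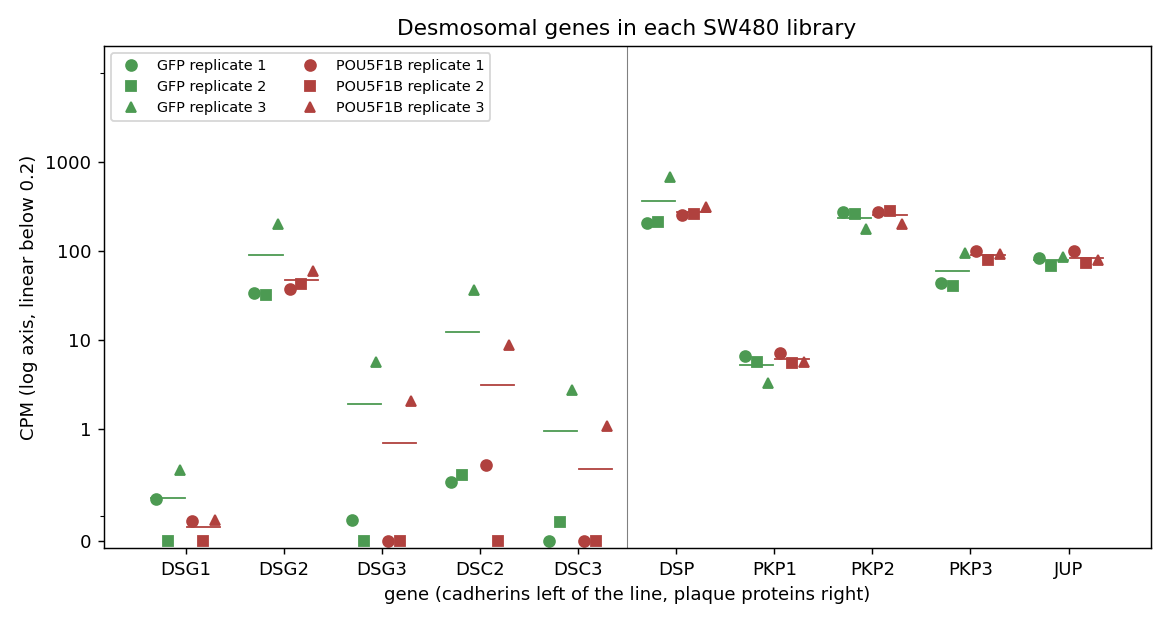
CPM of the 10 genes (y axis, logarithmic above 0.2 CPM) in each library, with cadherins left and plaque genes right; colours mark the groups, symbols the replicate numbers and short lines the group means. The triangles of replicate 3 lie above the other libraries for DSG2, DSG3, DSC2, DSC3 and DSP and below them for PKP2, and DSC2 runs from 0 to 36.1 CPM.

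With all 6 libraries, none of the desmosomal genes that could be tested passed the threshold between POU5F1B and GFP cells. Only DSG2, DSP, PKP1, PKP2, PKP3 and JUP had enough counts to be tested, 6 of the 10. By limma voom, 0 of the 6 passed an adjusted p of 0.05 with a fold change above 2, where the share over all 14286 tested genes was 0%. The induced gene POU5F1B itself was thus not called in this fit. A count of 0 here therefore does not show that the members were unchanged. At an unadjusted p under 0.05 the count was also 0 of 6, against 11.9% of all tested genes, and edgeR and DESeq2 likewise called 0 of 6, against 0% and 1.62% of all tested genes. The 3 POU5F1B values did not separate from the 3 GFP values for any of the 6, a separation that 19.4% of all tested genes showed. The fold change was above 0 for 4 of the 6, against 46.9% of all genes, and its median was 0.11 on the log2 scale, against -0.02 over all genes.

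PKP3, the plakophilin that binds the widest range of desmosomal cadherins, came closest to a difference. It had 43.5, 40.8 and 95.3 CPM in GFP replicates 1, 2 and 3, and 101, 78.9 and 92.8 CPM in the POU5F1B replicates. The 3 POU5F1B libraries and GFP replicate 3 thus lay together, and only GFP replicates 1 and 2 were low. The group means were 59.9 ± 30.7 and 90.9 ± 11.1 CPM (SD, n = 3), and the log2 fold change was 0.72 ± 0.32 (SE, adjusted p = 0.432, limma voom). Between libraries of equal number, POU5F1B exceeded GFP by 1.21 and 0.95 log2 CPM in replicates 1 and 2 and differed by -0.04 in replicate 3. With replicates 1 and 2 only, the log2 fold change was 1.08 ± 0.13 (SE, adjusted p = 7.42e-05, limma voom), and PKP3 was 1 of 6 tested members past the threshold on the higher side, where 3.21% of all tested genes were. Leaving out GFP replicate 3 alone gave 1.09 (adjusted p = 0.00646, limma voom). The low POU5F1B level of POU5F1B replicate 3 and the distinct GFP replicate 3 fall in the same pair, and their part in this result was not tested.

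DSP and DSG2 shared a pattern in which GFP replicate 3 held by far the most RNA. DSP had 204, 210.3 and 682 CPM with GFP and 254, 258.5 and 312.5 CPM with POU5F1B. Each POU5F1B library was above GFP replicates 1 and 2 and below GFP replicate 3. The log2 fold change was -0.17 ± 0.46 (SE, adjusted p = 0.918, limma voom) with all libraries and 0.29 ± 0.076 (adjusted p = 0.0118) with replicates 1 and 2 only, below the 2-fold limit. DSP and PKP3 were the 2 of 6 members higher at an adjusted p under 0.05 in that smaller fit, and 14.1% of all tested genes were. DSP shares its locus with the antisense gene DSP-AS1 (42 to 72 counts per library, against 2426 to 7870 for DSP), and the strand setting of the counting was not stated.

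DSG2, the desmoglein of simple epithelia, had 33.8, 32.3 and 201 CPM with GFP and 37.2, 42.5 and 59.95 CPM with POU5F1B. The order was the one seen for DSP, with the 3 POU5F1B values between GFP replicates 1 and 2 on one side and GFP replicate 3 on the other. The group means of 89.1 ± 97.0 and 46.6 ± 11.9 CPM (SD, n = 3) differed by less than the spread of the GFP libraries, with a log2 fold change of -0.39 ± 0.71 (SE, adjusted p = 0.865, limma voom). Without GFP replicate 3 the sign turned, to 0.45 (adjusted p = 0.201, limma voom), and DSP turned likewise, to 0.39 (adjusted p = 0.0626).

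PKP2, JUP and PKP1 had small fold changes between the groups. PKP2, the plakophilin of simple epithelia and heart, had 271, 257 and 175 CPM with GFP and 274, 282 and 202 CPM with POU5F1B. Replicate 3 was the lowest library of both groups. Its log2 fold change was 0.11 ± 0.21 (SE, adjusted p = 0.864, limma voom). JUP, whose product plakoglobin serves in adherens junctions too, had 82.4, 68.1 and 85.4 CPM with GFP and 99.6, 74.0 and 79.3 CPM with POU5F1B, so the groups overlapped almost fully. The log2 fold change of JUP was 0.10 ± 0.16 (SE, adjusted p = 0.838, limma voom). PKP1 had 6.56, 5.70 and 3.29 CPM with GFP and 7.07, 5.55 and 5.73 CPM with POU5F1B, and GFP replicate 3 was its lowest library. Its log2 fold change was 0.28 ± 0.31 (SE, adjusted p = 0.747, limma voom). Of the 6 tested members, PKP2 alone had the same sign in all 3 pairs of equal number (0.02, 0.13 and 0.21 log2 CPM), 1 of 6 against 36.7% of all tested genes.

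**Figure D2:**
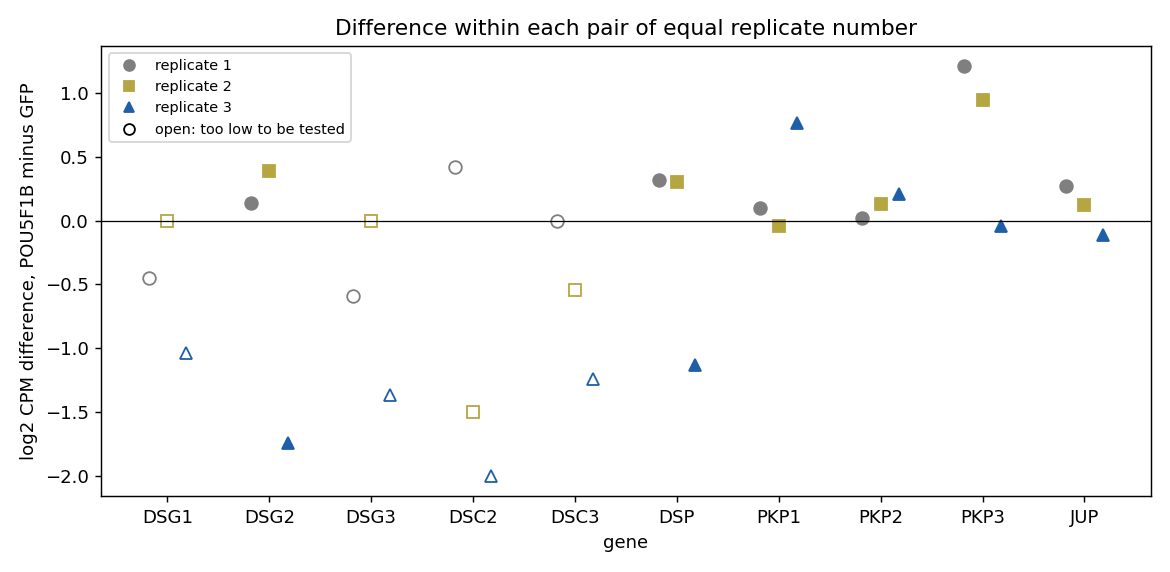
Difference in log2 CPM between the POU5F1B and GFP library of equal replicate number (y axis) for each gene, with symbols for replicates 1, 2 and 3 and open symbols for the 4 genes too low to be tested. Replicate 3 lies below 0 for all 5 cadherin genes and DSP, with DSG2 at -1.74, and slightly below 0 for PKP3 (-0.04) and JUP (-0.11). PKP3 is at 1.21 and 0.95 in replicates 1 and 2.

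DSC2, DSC3, DSG3 and DSG1 did not pass the filter on low counts, and the counts of the first 3 split by replicate number rather than by group. DSC2, the desmocollin of simple epithelia, had 3, 4 and 416 counts in GFP replicates 1, 2 and 3 and 5, 0 and 107 counts in the POU5F1B replicates. DSG3, the main desmoglein of basal keratinocytes, had 1, 0 and 65 counts with GFP and 0, 0 and 25 with POU5F1B. DSC3, a desmocollin of the same basal layers, had 0, 1 and 32 counts with GFP and 0, 0 and 13 with POU5F1B. These genes were thus at or near the detection limit in replicates 1 and 2 of both groups and clearly counted in replicate 3 of both. DSG1, the desmoglein of upper epidermal layers, had 2, 0 and 4 counts with GFP and 1, 0 and 1 with POU5F1B, which is no more than a trace anywhere. When all genes with a count were fitted, the log2 fold changes were -1.31 ± 2.28 for DSC2 (SE, adjusted p = 0.837, limma voom), -0.89 ± 1.74 for DSC3 (0.863), -0.86 ± 2.06 for DSG3 (0.901) and -0.74 ± 0.92 for DSG1 (0.761), values that depend on the prior count at such levels.

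The size of the replicate 3 excess can be given as a ratio over the pooled counts of replicates 1 and 2 of the same group, with an exact 95% interval that covers counting error only. It compares single libraries and was looked at after the pattern had been seen, so it carries no test. For DSC2 the ratio was 129 (62.1 to 323) with GFP and 41.8 (17.4 to 132) with POU5F1B. For DSG3 it was 141 (24.5 to 5658) with GFP, and with POU5F1B replicate 3 was at least 16.3-fold higher, taking 3 counts over the pooled libraries as the floor. For DSC3 it was 69.5 (11.6 to 2829) with GFP and at least 8.47-fold with POU5F1B. DSG2 and DSP, which were present everywhere, showed smaller ratios of 6.09 (5.62 to 6.60) and 3.29 (3.18 to 3.41) with GFP. With POU5F1B the same ratios were 1.51 (1.37 to 1.67) for DSG2 and 1.22 (1.17 to 1.27) for DSP.

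The plaque genes other than DSP went their own ways in replicate 3. PKP2 was lower in replicate 3 of both groups, at a ratio of 0.665 (0.632 to 0.699) with GFP and 0.728 (0.695 to 0.763) with POU5F1B. PKP3 was higher with GFP only, at 2.26 (2.08 to 2.47), against 1.02 (0.949 to 1.10) with POU5F1B. JUP stayed near 1, at 1.14 (1.06 to 1.23) and 0.902 (0.835 to 0.975). For PKP1 the ratio was 0.539 (0.368 to 0.774) with GFP and 0.899 (0.666 to 1.204) with POU5F1B. Among the 9 members with at least 10 counts in total, both replicate 3 libraries lay above the other 4 for 5 (DSG2, DSG3, DSC2, DSC3 and DSP), where 13.9% of 18513 such genes did. More than 4-fold above lay 3 of the 9 (DSC2, DSC3 and DSG3), against 0.762% of all genes. DSG3 and DSC3 reached 10 counts only through the replicate 3 libraries. Their place in both counts thus followed from the filter and is no support for the pattern. Both lay below the other 4 for 1 of the 9 (PKP2), against 9.92% of all genes. In bulk RNA, more cells that express a gene and more RNA per expressing cell cannot be told apart.

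Shares of the transcript counts within a family differed by replicate number too. Cadherin counts were summed here over the 5 cadherin members and their relatives DSC1 and DSG4. Desmocollins held 0.732% (95% Wilson interval 0.249 to 2.13), 1.16% (0.495 to 2.68) and 15.6% (14.3 to 16.9) of these counts in GFP replicates 1, 2 and 3. In POU5F1B replicates 1 and 3 the share was 1.04% (0.446 to 2.42) and 13.7% (11.6 to 16.2), and in replicate 2 it was 0 of 459 counts, with a Wilson upper limit of 0.83%, or 0.654% if 3 counts are taken as the limit. The intervals of the desmocollin share overlapped between the replicate 3 libraries, although the summed cadherin counts were 2881 with GFP and 874 with POU5F1B. DSG2 made up 95.3 to 100% of desmoglein counts, DSG4 included, in every library. Among plakophilins, PKP3 held 13.55%, 13.4% and 34.8% of the counts with GFP and 26.45%, 21.55% and 30.9% with POU5F1B. PKP2 held 84.4%, 84.7% and 64.0% with GFP and 71.7%, 76.9% and 67.2% with POU5F1B, so the 2 low GFP libraries for PKP3 were the ones in which PKP2 held most.

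On GRCh37, the 5 cadherin genes and their relatives DSC1 and DSG4 fill 560 kb of chromosome 18, from 28569331 to 29128971. DSC3 (28569331 to 28622781) and DSC2 (28638806 to 28682485) lie on the minus strand, and DSG1 (28898123 to 28939209), DSG3 (29027704 to 29058665) and DSG2 (29078140 to 29128971) on the plus strand, each range being the whole gene with exons and introns. DSG4, a desmoglein of hair, followed the pattern of its neighbours with 2, 2 and 45 counts with GFP and 0, 0 and 6 with POU5F1B. DSC1 had 0 counts in all 6 libraries, which at 3 counts allows up to 0.228 to 0.278 CPM per library. Whether the whole row shared the pattern could not be read, since DSC1 and DSG1, which lie between DSC2 and DSG4, stayed at 0 to 4 counts. For DSG1 the ratio of replicate 3 over replicates 1 and 2 was 4.34 (0.622 to 48) with GFP, too wide to tell. The overlapping transcripts DSG1-AS1, DSG2-AS1 and DSCAS had at most 2 counts in any library.

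The neighbours beyond the cluster differed among themselves. No gene on the desmocollin side within 2 Mb was tested. On the desmoglein side, the tested gene nearest to DSG2 was B4GALT6, a glycosyltransferase gene. It had 11.9, 12.9 and 15.0 CPM with GFP and 11.0, 14.5 and 11.7 with POU5F1B, without an excess in replicate 3. TRAPPC8, a gene of vesicle transport, had 9.42, 13.0 and 44.4 CPM with GFP but 10.9, 11.9 and 11.0 with POU5F1B. RNF125, a ubiquitin ligase gene, had 3.62, 2.81 and 8.58 CPM with GFP and 4.48, 3.98 and 5.81 with POU5F1B. None of these tested neighbours passed the threshold between the groups by limma voom. GAREM1, an adaptor of growth factor signalling that was too low to be tested, had 6, 2 and 88 counts with GFP and 5, 5 and 44 with POU5F1B, also high in both replicate 3 libraries. HNRNPA1P7, a processed pseudogene inside the GAREM1 region, had 55.75, 62.3 and 61.3 CPM with GFP and 52.8, 40.9 and 48.1 with POU5F1B, so every POU5F1B library was lower. Its log2 fold change was -0.34 ± 0.14 (SE, adjusted p = 0.408, limma voom), and reads of such a copy can be confused with its parent gene. GAREM1 overlaps RNF138 on the other strand, which had 14.1, 11.6 and 41.96 CPM with GFP and 16.6, 18.6 and 20.5 with POU5F1B. Within 2 Mb of the cluster, 8 of 13 genes with at least 10 counts in total had both replicate 3 libraries above the other 4. The share was 13.9% over all such genes and 37.8% over those of the arm outside this window. The 8 were the cadherins DSC3, DSC2, DSG4, DSG3 and DSG2, whose pattern prompted the count, and RNF125, RNF138 and GAREM1. DSC3, DSG4 and DSG3 reached 10 counts only through the replicate 3 libraries, so the filter fixed their place among the 8.

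**Figure D3:**
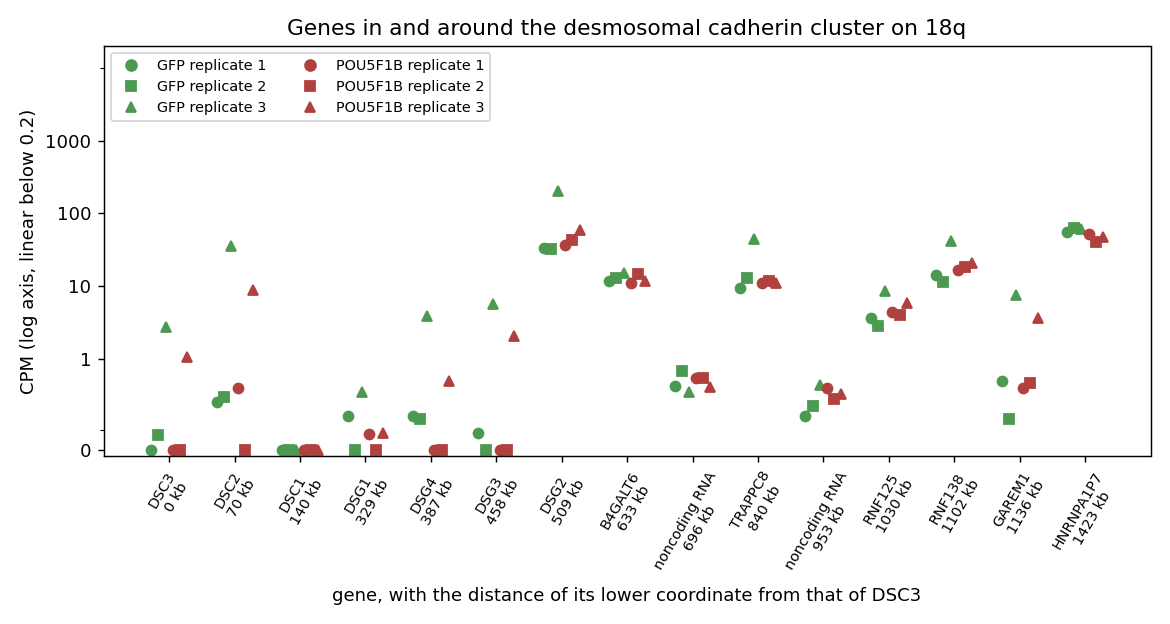
CPM (y axis, logarithmic above 0.2 CPM) in each library for the cadherin genes and for the genes within 2 Mb that had at least 10 counts, in order along chromosome 18 with the distance from DSC3 in kb under each name. Replicate 3 (triangles) is high in both groups for DSC3, DSC2, DSG4, DSG3 and GAREM1, and not for B4GALT6 at 11.0 to 15.0 CPM. DSC1, at 0 counts in every library, cannot be read.

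Replicate 3 was high for other genes of the arm as well. Of 161 genes on chromosome 18 beyond 20 Mb with at least 10 counts, 64 (39.8%) had both replicate 3 libraries above the other 4, and 6 (3.73%) were more than 4-fold above, against 13.9% and 0.762% of all genes. Of the 6, DSC2, DSC3 and DSG3 are members and GAREM1 a neighbour, and DSC3 and DSG3 reached 10 counts only through replicate 3. Without the 2 Mb around the cluster, 56 of 148 genes (37.8%) lay above and 2 (1.35%) more than 4-fold above. Genes on one arm are not independent of each other. Between the groups, the median log2 fold change over the 118 tested genes of this stretch was -0.12, and 37 were above 0, 81 below 0 and 0 past the threshold by limma voom. The copy number of chromosome 18 was not measured in these libraries, and whether it differed between them was not tested.

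The tested genes whose profile over the 6 libraries was most like that of DSG2 were TRIQK, TRIM2 and AHR, with a mean absolute difference of centred log2 CPM of 0.0401, 0.09 and 0.104, against a median of 0.72 over all genes. AHR, the dioxin receptor, had 14.2, 12.2 and 96.1 CPM with GFP and 16.7, 16.6 and 23.7 with POU5F1B. For DSP they were ADAM22, SEC11C and CYB5A, at 0.0549, 0.0687 and 0.0692 against a median of 0.487. This likeness rests chiefly on GFP replicate 3, the highest library for all of these genes.

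Among other genes of the desmosome, 4 of 7 were tested and 0 passed the threshold by limma voom. PKP4, an armadillo protein found in desmosomes and adherens junctions, had 355, 336 and 319.5 CPM with GFP and 234, 241 and 281 with POU5F1B, so every POU5F1B library was lower. Its log2 fold change was -0.42 ± 0.11 (SE, adjusted p = 0.256, limma voom). With replicates 1 and 2 only it was -0.55 ± 0.075 (SE, adjusted p = 0.000176, limma voom), below the 2-fold limit. In that fit PPL was at 0.034 (adjusted p = 0.866) and PERP at 0.19 (0.135). With all libraries, PPL (0.27, adjusted p = 0.674) and PERP (0.16, 0.867), a filament linker and a membrane protein of the desmosome, overlapped between groups. PERP followed the cadherins in replicate 3, with 142.5, 124 and 241.5 CPM with GFP and 151, 155 and 252 with POU5F1B. The keratins, to which the plaque anchors, were abundant, and their 7 simple epithelial members summed to 6800 to 9145 CPM. All 7 were tested and 0 passed, with KRT23 at -0.29 (adjusted p = 0.521, limma voom), KRT18 at 0.17 (0.614) and KRT19 at 0.34 (0.639).

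The adherens junction, the other cadherin junction of epithelia, differed from the desmosome in its leading values, although here too 0 of 10 tested genes passed by limma voom. CDH1, which encodes E-cadherin, had 33.6, 30.1 and 72.5 CPM with GFP and 164, 158 and 98.1 with POU5F1B, without overlap. Its log2 fold change was 1.71 ± 0.36 (SE, adjusted p = 0.207, limma voom). CDH3, encoding P-cadherin, had 21.9, 17.7 and 29.5 CPM with GFP and 76.7, 69.1 and 39.1 with POU5F1B, again without overlap (1.40 ± 0.33, adjusted p = 0.230, limma voom). CTNNA1, encoding alpha-catenin, had 1420, 1265 and 1047 CPM with GFP and 835, 859 and 897.5 with POU5F1B (-0.52 ± 0.13, adjusted p = 0.236, limma voom). With replicates 1 and 2 only, CTNNA1 was at -0.67 ± 0.071 (SE, adjusted p = 2.53e-05, limma voom), below the 2-fold limit. DESeq2 called both cadherins, and so did voom with replicates 1 and 2 only, at 2.33 for CDH1 (adjusted p = 1.81e-08) and 1.88 for CDH3 (adjusted p = 1.46e-06). In the same fit the desmosomal cadherin DSG2 was at 0.25, and the plaque genes DSP and PKP3 at 0.29 and 1.08, of which PKP3 passed. Whether classical and desmosomal genes differ in response was not tested.

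Transcription factors known to set epithelial and mesenchymal states were called in 0 of 9 cases by limma voom with all libraries, and 5 of the 9 had an unadjusted p under 0.05, against 11.9% of all tested genes. With replicates 1 and 2 only, 6 of the 9 passed, of which ELF3, SNAI1, GRHL1, OVOL1 and OVOL2 were higher and ZEB1 lower, where 3.21% of all genes passed on the higher and 5.15% on the lower side. Without GFP replicate 3 alone, SNAI1, GRHL1 and OVOL2 passed. ELF3, an epithelial factor, had 10.3, 9.20 and 8.93 CPM with GFP and 23.3, 17.6 and 16.2 with POU5F1B (0.99 ± 0.21, adjusted p = 0.207, limma voom). SNAI1, a repressor of E-cadherin, stood at 1.06 ± 0.30 (adjusted p = 0.285) and GRHL1, known to activate DSG1, at 0.84 ± 0.29 (adjusted p = 0.349). ZEB1, a repressor of epithelial genes chosen for mention after its values were seen, had 5.72, 9.51 and 22.4 CPM with GFP and 2.43, 4.997 and 3.16 with POU5F1B. ZEB1 was thus highest in replicate 3 with GFP but not with POU5F1B, and its part in the levels of the desmosomal genes was not tested. Of 13 genes of desmosome turnover and signalling 0 passed by limma voom, with the kinase genes PRKCD at 0.50 ± 0.13 (adjusted p = 0.237), PRKCA at -0.96 ± 0.26 (0.261) and EGFR at 0.77 ± 0.22 (0.282). PRKCA alone of the 13 passed without GFP replicate 3, at -1.009 (adjusted p = 0.0493, limma voom). It also passed with replicates 1 and 2 only, at -1.325 (adjusted p = 1.34e-06, limma voom). At an unadjusted p under 0.05 stood 1 of 4 other desmosomal genes, 0 of 7 keratins, 4 of 10 adherens junction genes and 4 of 13 turnover genes, against the same 11.9%. Over all 5 lists edgeR called 0 genes and DESeq2 called 4, which were CDH1, CDH3, ELF3 and ZEB1, where DESeq2 called 1.62% of all tested genes.

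Markers of other cell types were read beside the replicate 3 excess. Of the 10 colon epithelium markers, 8 were tested. Both replicate 3 libraries lay above the other 4 for 4 of these 8, against 1965 of all 14286 tested genes. The summed level of the 10 markers ran from 6354 to 9545 CPM with its top in GFP replicate 3. VIL1, a brush border protein gene, had 23.0, 14.0 and 210 CPM with GFP and 42.6, 37.6 and 111 with POU5F1B, high in both replicate 3 libraries like the cadherins. Of the 8 stratified epithelium markers, 5 were under 1 CPM in every library, among them the defining genes TP63 and LORICRIN at 0. The summed level of 1278 to 2534 CPM was carried by KRT5 and was highest in GFP replicate 1. Of the 3 tested markers, both replicate 3 libraries lay above the other 4 for 1 (SFN) and below them for 1 (KRT10). SFN had 49.45, 39.8 and 188 CPM with GFP and 91.0, 76.1 and 95.2 with POU5F1B. Fibroblast markers summed to 5.74 to 143 CPM with COL3A1 at 0, a sum carried by COL1A1 and highest in GFP replicate 1. The fibroblast marker LUM, however, had 0, 0 and 34 counts with GFP and 0, 0 and 5 with POU5F1B, the replicate 3 pattern of the cadherins, and DCN (0 to 3 counts) and PDGFRA (0 to 4 counts) were too low to read. Leukocyte markers summed to 1.07 to 4.24 CPM with CD68 at 0. Endothelial markers (2 of 3 matched) summed to 1.21 to 6.52 CPM and cardiomyocyte markers to 0.550 to 3.36 CPM with MYH7 at 0, both without an excess in GFP replicate 3. The part of any of these markers in the cadherin pattern was not tested.

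**Figure D4:**
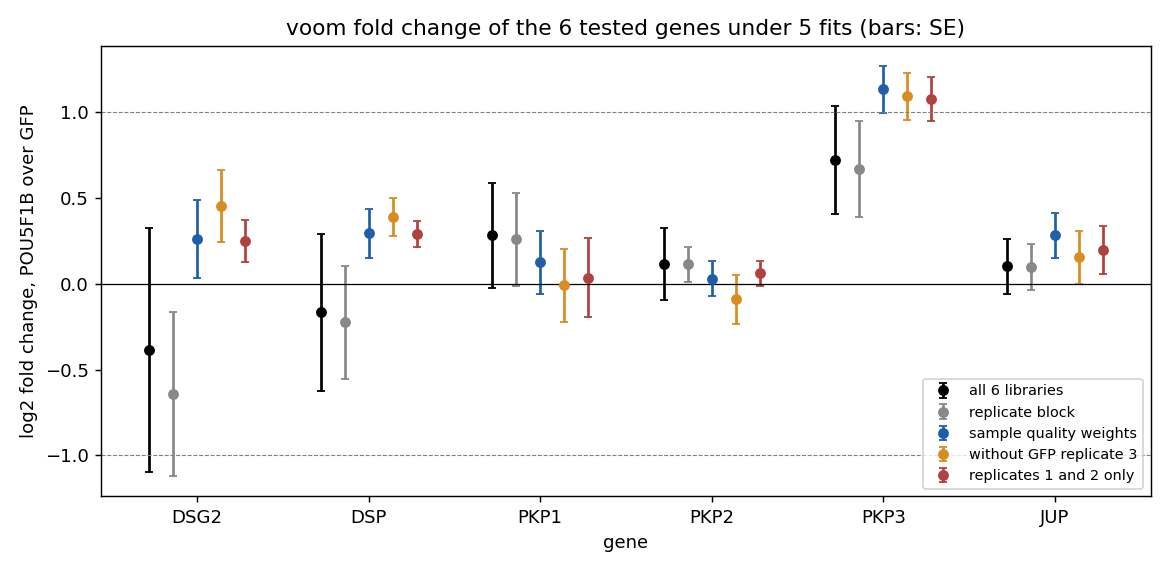
Log2 fold change of POU5F1B over GFP (y axis, points with bars of 1 SE) for the 6 tested genes under 5 fits, with dashed lines at the 2-fold limits. PKP3 moves from 0.72 with all libraries to 1.09 without GFP replicate 3, DSG2 moves from -0.39 to 0.45, and JUP and PKP2 stay near 0.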

How the data were processed

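RNA was from 3 GFP and 3 POU5F1B libraries of SW480 cells, grouped and numbered by their titles. The authors deposited raw, whole-number counts per Ensembl gene for each library, made with HISAT2 on hg19 and featureCounts, keeping uniquely mapped reads. Such counting loses reads from repeated sequence and can split reads between close paralogs. The kit was stranded, but the strand setting and annotation release are not given in the sources used here. Of 63677 identifiers, 87.4% matched a symbol in a GENCODE annotation on GRCh37, the build of hg19, whose merged exons gave lengths.

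Genes were filtered with filterByExpr (edgeR 4.0.16, minimum count 10), leaving 14286, scaled by TMM, and tested with limma 3.58.1 voom in R 4.3.3, as in the study's methods, without a block. P-values were Benjamini-Hochberg adjusted over all tested genes, and a gene passed at an adjusted p under 0.05 and a fold change above 2. The log2 CPM used a prior count of 2. The steps were tested on simulated data. Intervals on shares are 95% Wilson intervals and cover counting error only. The 13 alternatives included edgeR's quasi-likelihood test, DESeq2 1.42.0, sample quality weights, a replicate block and left-out libraries. Named are all members, the 3 genes of smallest p per list, tested neighbours of the cluster, and the 3 genes most like DSG2 and DSP. GRCh38.p14 promoters come from RefSeq. The members and lists were chosen with earlier results of these data known.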

Additional observations from a re-analysis of the deposited data

How the results depend on the processing

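With the 6 tested members under 13 alternatives, 66 of 78 fold changes kept their direction and their side of the threshold, 3 passed it and 9 changed sign. GFP replicate 3 decided most of this. The number of members past the threshold was 0 with all libraries and 1 (PKP3) without GFP replicate 3, with replicates 1 and 2 only and with sample quality weights, so that leaving out 1 library gave 0 to 1. PKP3 was then at 1.09, 1.08 and 1.13 on the log2 scale, and its range on leaving out each library was 0.51 to 1.09. DSG2 turned to 0.45 without GFP replicate 3, 0.25 with replicates 1 and 2 and 0.26 with quality weights (range on leaving out each library -0.84 to 0.45), and DSP to 0.39, 0.29 and 0.29 (-0.46 to 0.39). Near 0, PKP1 reached -0.0091 (range -0.0091 to 0.47) and PKP2 -0.0911 (-0.0911 to 0.28) without GFP replicate 3, and JUP -0.0272 (-0.0272 to 0.19) without POU5F1B replicate 1. Of the other junction genes, 0 passed with all libraries, 4 by DESeq2 (CDH1, CDH3, ELF3 and ZEB1), 9 with replicates 1 and 2, 9 with quality weights, and 0 to 6 on leaving out 1 library, with 6 without GFP replicate 3. Over all genes, 0 passed by voom or edgeR, 232 by DESeq2 and 595 by voom without GFP replicate 3. Deviations of libraries of equal number correlated at 0.242, 0.0883 and 0.165 for replicates 1, 2 and 3. As not every value was over 0.1 and the labels name no shared culture or day, the numbers were not taken to pair the libraries, which does not exclude a shared source. With the replicate number as a block, DSG2 was at -0.64, DSP at -0.23, PKP1 at 0.26, PKP2 at 0.11, PKP3 at 0.67 and JUP at 0.098, 0 members passed, and 1 gene of the whole table did. At 0.228 to 0.278 CPM for 3 counts, DSG1 could not be compared in any library.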
